A study of Mus musculus with 6 samples.

Results

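The subunits of the NADPH oxidases were followed in damaged hepatocytes (dHeps) cultured with chemical cocktails. They are 9 genes out of the 52323 in the deposited count table, chosen by gene symbol. Cybb, Cyba, Ncf1, Ncf4 and Rac2 belong to the phagocyte enzyme, and Nox1, Nox4, Noxo1 and Duox2 belong to the oxidases of other cells. These members do not make up every subunit gene of the family.

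The 6 RNA-seq libraries came from the livers of AAV-TBG-Cre:Rosa-LSL-tdTomato mice, which were 8 to 10 weeks old when treatment began and received CCl4 for 12 weeks. AAV-delivered Cre under the hepatocyte-directed TBG promoter switched on tdTomato, so the label marks cells that were hepatocytes before injury. All cells were isolated by collagenase perfusion and cultured for 16 days in serum-free Hepatocyte Maintenance Medium, and no sort for tdTomato is described for these libraries. The paper reports that its hepatocyte isolation from CCl4-injured mice of this kind enriched tdTomato-positive cells. The control group received the solvent, DMSO. The 3C group received CID755673 at 50 µM, GSK429286A at 2 µM and ETC-1002 at 5 µM. CID755673 inhibits protein kinase D, GSK429286A inhibits the kinase ROCK, and ETC-1002 (bempedoic acid) blocks ATP citrate lyase. The 5C group received the same 3 compounds with salidroside at 5 µM and forskolin, an activator of adenylate cyclase, at 2 µM. There were 2 libraries per group. The labels do not say whether they came from separate mice, so the p-values measure the spread between these libraries, which may be technical.

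NADPH oxidases move electrons from NADPH across a membrane onto oxygen and thereby make superoxide or hydrogen peroxide. In phagocytes, gp91phox (Cybb) and p22phox (Cyba) form the membrane-bound cytochrome b558, which stays idle until the cytosolic proteins p47phox (Ncf1) and p40phox (Ncf4) and the small GTPase Rac2 join it. NOX4 also pairs with p22phox but needs no cytosolic organizer, releases mainly hydrogen peroxide, and is known in liver from stellate cells and hepatocytes. NOX1 works with the organizer NOXO1, and DUOX2 is an epithelial, calcium-regulated oxidase.

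The 250 bases upstream of the annotated start of 4 members are shown because PU.1 (Spi1), a myeloid transcription factor, is known for its part in phagocyte oxidase gene expression. Each was read from GRCm39 on the strand of the gene, from 5′ to 3′, at the Ensembl canonical start in GENCODE. Capitals mark the PU.1 core letters GAGGAA, searched on both strands, so that TTCCTC in capitals is a match on the other strand.
The Cybb window lies at chrX:9335571-9335820 on the minus strand.
Cybb: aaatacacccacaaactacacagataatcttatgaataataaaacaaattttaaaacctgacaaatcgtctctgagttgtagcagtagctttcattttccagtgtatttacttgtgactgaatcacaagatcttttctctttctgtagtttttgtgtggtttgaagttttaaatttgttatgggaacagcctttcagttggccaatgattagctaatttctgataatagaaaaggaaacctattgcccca
The Ncf4 window lies at chr15:78128732-78128981 on the plus strand.
Ncf4: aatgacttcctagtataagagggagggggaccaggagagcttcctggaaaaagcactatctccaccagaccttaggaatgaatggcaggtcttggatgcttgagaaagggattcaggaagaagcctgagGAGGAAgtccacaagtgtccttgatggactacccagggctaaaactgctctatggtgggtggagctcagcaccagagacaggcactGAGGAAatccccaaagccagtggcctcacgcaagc
The Rac2 window lies at chr15:78457430-78457679 on the minus strand.
Rac2: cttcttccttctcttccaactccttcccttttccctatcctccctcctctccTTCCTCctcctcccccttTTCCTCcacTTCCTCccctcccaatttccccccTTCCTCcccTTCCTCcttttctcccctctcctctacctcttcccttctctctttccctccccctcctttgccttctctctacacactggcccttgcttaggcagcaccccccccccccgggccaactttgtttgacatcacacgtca
The Nox4 window lies at chr7:86895607-86895856 on the plus strand.
Nox4: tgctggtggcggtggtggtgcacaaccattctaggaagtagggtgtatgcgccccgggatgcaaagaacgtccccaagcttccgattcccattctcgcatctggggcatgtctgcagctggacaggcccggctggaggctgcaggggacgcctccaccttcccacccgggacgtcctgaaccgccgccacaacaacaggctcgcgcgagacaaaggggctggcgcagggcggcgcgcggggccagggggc
The Ncf4 window held 2 matches to GAGGAA, 121 and 35 bases before the start. The Rac2 window held 5, all on the other strand, between 198 and 138 bases before the start. Among the other members the Nox1 window held 1, and the windows of Cybb, Cyba, Ncf1, Nox4, Noxo1 and Duox2 held none. Only these exact letters were searched, so PU.1 sites with other letters were not counted, and a window without a match may hold one. Of the windows of all 21770 protein-coding genes, 22.9% held this motif. The AP-1 letters TGANTCA were found in Cybb alone among the members, 132 bases before the start, and in 6.17% of all windows. The cyclic AMP response element TGACGTCA was in no member's window and in 1.69% of all windows. The Nox4 window was 67.2% G or C with 20 CpG sites, against medians of 53.2% and 8 sites over all genes, whereas the Cybb window was 32.8% G or C with 1 CpG site. These matches describe letters in these windows, and no binding was measured.

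Library totals ran from 65916573 to 69245895 estimated counts, and replicates correlated at 0.975 to 0.977 (Pearson, across genes, log2 scale). The deposited counts are whole numbers with an excess at 4 and 8, so a limit of 12 counts was taken for a gene at 0, or 0.173 to 0.182 CPM (counts scaled to the library total), assuming 4 counts for each of 3 fragments. This limit covers counting error only. The cells are labelled hepatocytes. Of 10 hepatocyte markers, 9 were called higher in 5C and 10 in 3C than in DMSO, against 7.3% and 5.83% of all genes tested. Their summed level was 1881 to 2288 CPM in DMSO, 10497 to 10902 CPM in 3C and 9913 to 14524 CPM in 5C. Beside them, macrophage markers summed to 15679 to 16807 CPM in DMSO.

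Differences were tested with edgeR's quasi-likelihood test over 19135 genes that passed a filter on low counts. Calls required both a log2 fold change beyond 1 in either direction and a p under 0.05 after Benjamini-Hochberg adjustment over all genes tested. All 5 phagocyte members passed the filter, as did Nox4 and Noxo1, so 7 of the 9 members were tested. Nox1 and Duox2 were not.

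The 5 phagocyte subunits fell in 5C and in 3C relative to DMSO, by 2.68-fold (Cyba) to 5.47-fold (Cybb) in 5C and by 2.38-fold (Cyba) to 3.40-fold (Cybb) in 3C. Nox4 did not follow them: its level in 5C was close to that in DMSO, and it was 1.65-fold higher in 3C, under the limit for a call. All 5 phagocyte subunits were called lower in 5C, against 4.42% of all genes tested, and all 5 were called lower in 3C, against 3.62%. Both DMSO libraries were above both treated libraries for each of the 5, a pattern shown by 32.2% of genes in 5C and 27.7% in 3C. Neither Nox4 nor Noxo1 was called in any comparison, where calls in either direction took 11.7% of genes in 5C and 9.45% in 3C. Both comparisons share the DMSO libraries, so they are not independent of each other.

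**Figure D1:**
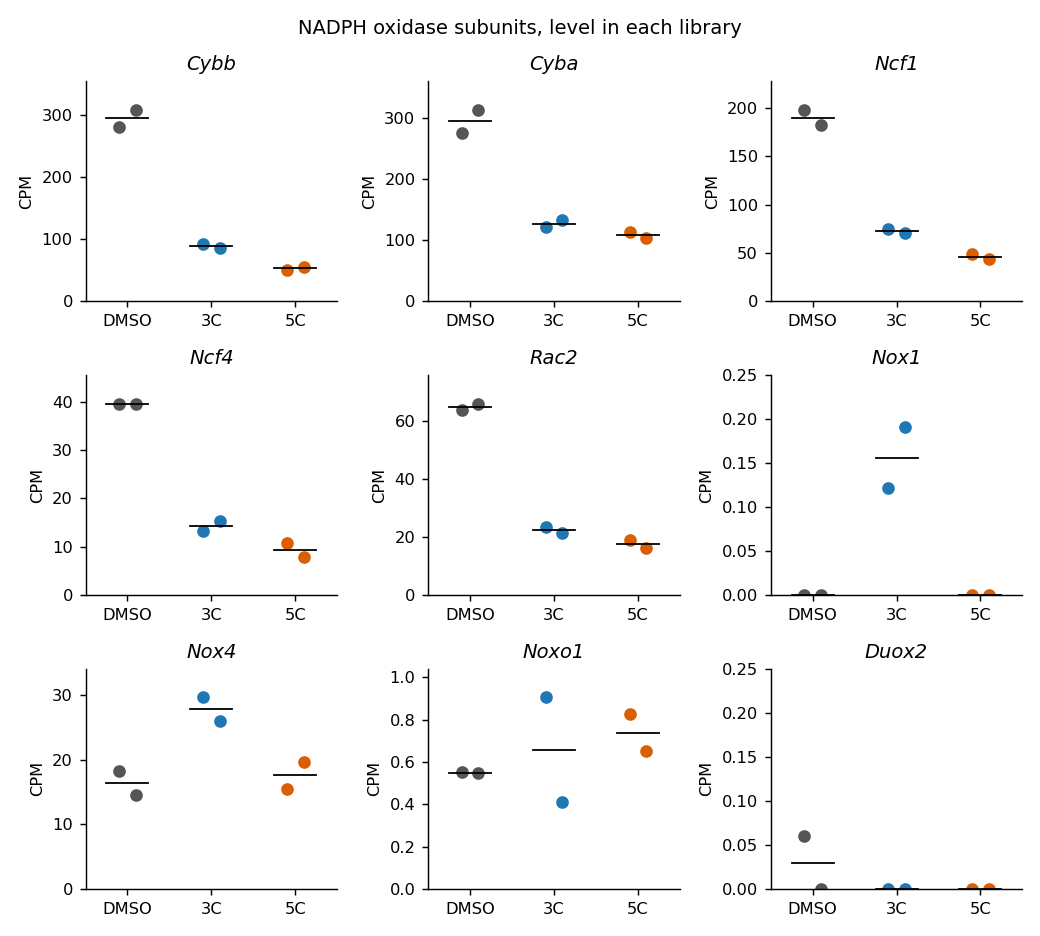
CPM in each library for the subunits, with each point a library and each horizontal line a group mean. The 2 DMSO libraries lie above all treated libraries for the 5 phagocyte subunits, while both 3C libraries are the highest for Nox4.

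Cybb, the catalytic subunit that carries electrons across the phagosome membrane, lies at chromosome X, 9301491 to 9354010, on the minus strand of GRCm39. It was measured at 281 and 308 CPM in DMSO, 92.1 and 85.1 CPM in 3C, and 51 and 55.4 CPM in 5C. The 3 groups did not overlap, with DMSO highest and 5C lowest. The log2 fold change was -2.45 in 5C (SE 0.09, 95% interval -2.65 to -2.25, edgeR adjusted p = 3.55e-07) and -1.77 in 3C (SE 0.09, 95% interval -1.96 to -1.57, edgeR adjusted p = 2.73e-06). Its exons overlap those of Xk on the opposite strand, and the library kit does not mark strand. Xk had 133 to 243 counts per library, against 3523 to 20321 for Cybb.

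Cyba, the partner that stabilizes gp91phox and also serves NOX4 and other oxidases, lies at chromosome 8, 123150422 to 123159706, on the minus strand. Its level was 276 and 314 CPM in DMSO, 121 and 133 CPM in 3C, and 114 and 104 CPM in 5C. DMSO stood above both treated groups, and the 3C and 5C libraries lay close together without overlapping. The log2 fold change was -1.42 in 5C (SE 0.09, 95% interval -1.63 to -1.21, edgeR adjusted p = 6.51e-06) and -1.25 in 3C (SE 0.09, edgeR adjusted p = 1.92e-05). These intervals lie apart from those of Cybb in both comparisons, with the smaller change in Cyba. Il17c, which overlaps Cyba on the other strand, had 6 to 16 counts, against 7171 to 20719 for Cyba.

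Ncf1, the organizer that carries the activating phosphorylation, lies at chromosome 5, 134248907 to 134258479, on the minus strand. It was measured at 198 and 182 CPM in DMSO, 74.5 and 71 CPM in 3C, and 48.5 and 43.6 CPM in 5C. The groups again did not overlap and kept the order DMSO, 3C, 5C. Its log2 fold change was -2.02 in 5C (SE 0.08, 95% interval -2.20 to -1.85, edgeR adjusted p = 3.77e-07) and -1.41 in 3C (SE 0.07, edgeR adjusted p = 3.71e-06). Of the 50-base words in its longest transcript, 12.5% also occur in transcripts of other genes, mainly Gtf2ird2 on the other strand. Gtf2ird2 had 817 to 1378 counts, against 3017 to 13266 for Ncf1.

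Ncf4, which binds phosphoinositide on the phagosome and supports oxidase activity there, lies at chromosome 15, 78128982 to 78146784, on the plus strand. Its level was 39.6 CPM in both DMSO libraries, 13.3 and 15.3 CPM in 3C, and 10.8 and 7.97 CPM in 5C. All treated libraries were lower than the DMSO libraries, and the 5C libraries were the lowest. The log2 fold change was -2.06 in 5C (SE 0.15, 95% interval -2.40 to -1.72, edgeR adjusted p = 1.14e-05) and -1.50 in 3C (SE 0.15, edgeR adjusted p = 9.11e-05).

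Rac2, the hematopoietic Rac GTPase that completes the active complex, lies at chromosome 15, 78443367 to 78457429, on the minus strand. Levels were 63.7 and 65.9 CPM in DMSO, 23.6 and 21.2 CPM in 3C, and 18.8 and 16.3 CPM in 5C. The DMSO libraries were far above the rest, and 5C was below 3C without overlap. The log2 fold change was -1.87 in 5C (SE 0.10, 95% interval -2.10 to -1.63, edgeR adjusted p = 2.72e-06) and -1.57 in 3C (SE 0.10, edgeR adjusted p = 1.09e-05). Rac1, the widely expressed Rac that serves the same role in other cells, was not called, at 442 and 459 CPM in DMSO, 414 and 423 CPM in 3C and 389 CPM in both 5C libraries (log2 fold change in 5C -0.19, edgeR adjusted p = 0.0573). Rac1 was singled out after its values were seen.

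**Figure D2:**
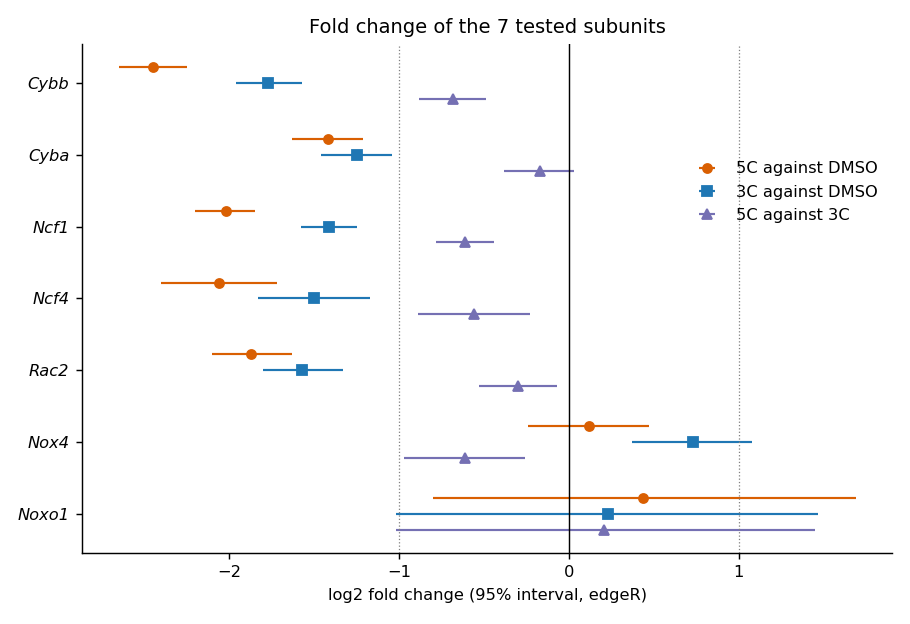
Log2 fold change of the tested members in each of the 3 comparisons, with 95% intervals from the edgeR fit. Intervals of the 5 phagocyte subunits lie below 0 against DMSO, while the intervals of Nox4 and Noxo1 in 5C against DMSO include 0.

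Nox4, the constitutively active oxidase, lies at chromosome 7, 86895304 to 87047918, on the plus strand. Its longest transcript shares no 50-base word with other genes. Nox4 was measured at 18.3 and 14.6 CPM in DMSO, 29.7 and 26 CPM in 3C, and 15.5 and 19.7 CPM in 5C. The 3C libraries were the highest, and the DMSO and 5C libraries overlapped. In 5C the log2 fold change was 0.12 (SE 0.16, 95% interval -0.24 to 0.47, edgeR adjusted p = 0.655). In 3C it was 0.73 (SE 0.16, 95% interval 0.37 to 1.08, edgeR adjusted p = 0.00871), past the p threshold but below the fold limit, and an increase of any size at that p was found in 12.7% of genes. Without 3C replicate 1, the adjusted p was 0.075.

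Noxo1, at chromosome 17, 24914682 to 24919504, was at the edge of detection. It had 37 and 36 counts in DMSO, 60 and 28 in 3C, and 57 and 45 in 5C. The 3C libraries lay on both sides of the DMSO libraries, and the 5C libraries lay above them. The log2 fold change was 0.44 in 5C (SE 0.55, 95% interval -0.80 to 1.69, edgeR adjusted p = 0.616) and 0.23 in 3C (SE 0.55, edgeR adjusted p = 0.827), intervals that allow more than a 2-fold change. Of the 50-base words in its longest transcript, 46% also occur in other genes, mainly Tbl3 on the opposite strand. Tbl3 had 2412 to 3096 counts per library, so the Noxo1 values are uncertain. Nox1, at chromosome X, 132987170 to 133122705, had 0 counts in the DMSO and 5C libraries and 8 and 13 counts in 3C. In its longest transcript 20.5% of the 50-base words also occur in other genes, mainly Cstf2 on the opposite strand. Cstf2 had 2084 to 2360 counts per library, so the Nox1 counts are uncertain. Duox2, at chromosome 2, 122109728 to 122128930, had 4 counts in 1 DMSO library and 0 in the other 5. Of these values, only that of Nox1 in 3C replicate 2 exceeded the limit of 12 counts, by 1 count, and no fold change is given.

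Adding salidroside and forskolin to 3C was examined in 5C against 3C. No member was called, by edgeR or by DESeq2, where 3.01% of genes were called in either direction by edgeR. All 5 phagocyte subunits were lower in both 5C libraries than in both 3C libraries, as were 34.8% of genes. At an unadjusted p under 0.05, 5 members of 7 differed, against 24.7% of genes, and 4 had an adjusted p under 0.05. Cybb had a log2 fold change of -0.68 (95% interval -0.88 to -0.49, edgeR adjusted p = 0.00144), and that of Ncf1 was -0.61 (95% interval -0.78 to -0.44, edgeR adjusted p = 0.00123). Ncf4 changed by -0.56 (95% interval -0.89 to -0.23, edgeR adjusted p = 0.0366) and Nox4 by -0.61 (95% interval -0.97 to -0.26, edgeR adjusted p = 0.0348). A decrease of any size at that p was found in 5.33% of genes. For Rac2 the change was -0.30 (95% interval -0.53 to -0.07, edgeR adjusted p = 0.0976), and for Cyba -0.17 (95% interval -0.38 to 0.03, edgeR adjusted p = 0.295). Over the alternatives the adjusted p reached 0.23 for Ncf4 and 0.229 for Nox4, whereas it reached only 0.0196 for Cybb and 0.0186 for Ncf1.

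Compared per transcript length, as FPKM, Cyba had the highest level of the members in every group, at 362 ± 20.2 in DMSO, 153 ± 12.7 in 3C and 133 ± 11.5 in 5C (mean ± SD, n = 2). In DMSO it was followed by Ncf1 (64.1 ± 6.09), Cybb (56.4 ± 1.67), Ncf4 (26 ± 0.221), Rac2 (19.9 ± 0.166) and Nox4 at 4 FPKM, with no overlap between neighbours. In 3C the values of Rac2 (6.36 to 7.06) and Nox4 (6.27 to 7.08) overlapped, and in 5C those of Ncf4 (5.1 to 6.94) and Rac2 (4.93 to 5.68) did.

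The balance between the catalytic subunits Cybb and Nox4 differed between DMSO and the cocktails. Cybb FPKM was 12.2 and 16.7 times that of Nox4 in DMSO, 2.42 and 2.59 times in 3C, and 2.6 and 2.24 times in 5C. The treated libraries lay together, and both DMSO libraries lay above them. No test was run on these ratios. Rac2 was 4.41 and 5.73 times Nox4 in DMSO, and 0.997 to 1.5 times in the treated libraries. The ratio of Cyba to Cybb moved the other way, from 6.3 and 6.54 in DMSO to 8.42 and 10 in 3C and 14.3 and 12 in 5C.

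**Figure D3:**
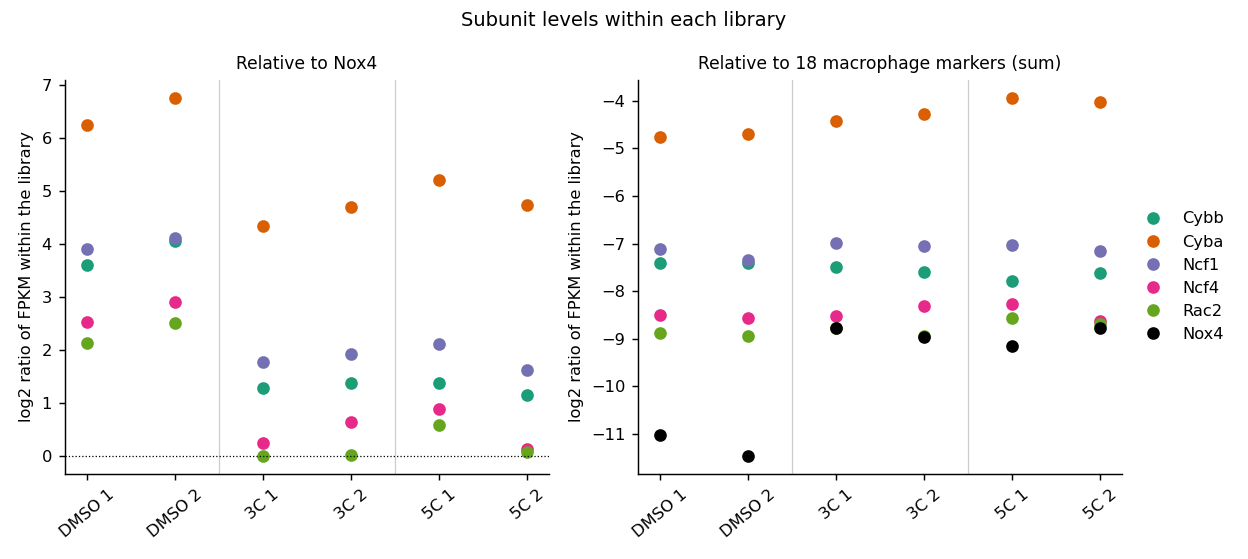
Log2 ratio of FPKM within each library, relative to Nox4 (left) and to the sum of 18 macrophage markers (right). Relative to Nox4 all phagocyte subunits are lower in the treated libraries than in DMSO. Relative to the macrophage markers Cybb stays between -7.78 and -7.41 while Cyba rises from -4.76 to -3.93. Ncf1, Ncf4 and Rac2 overlap there between DMSO and the treated libraries.

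Macrophage markers moved with the phagocyte subunits. Of 18 markers, 16 were called lower in 5C (median log2 fold change -2.01) and 16 in 3C (median -1.53), beside medians over all genes of 0.004 and 0.009. Of all genes tested, 4.42% were called lower in 5C and 3.62% in 3C. Their summed level fell from 15679 to 16807 CPM in DMSO to 5478 to 5489 CPM in 3C and 3680 to 3694 CPM in 5C. The exceptions, named after their values were seen, were Clec4f, not called, and Cx3cr1, which had 0 and 4 counts in DMSO and was called higher in both cocktails. In bulk RNA, fewer cells of a type and less RNA per cell cannot be told apart. Lyz2 alone gave 6024 and 6137 CPM of the macrophage sum in DMSO. Its levels were also the nearest to those of Cybb, so the Cybb ratio to this sum is not an independent comparison. Relative to the summed markers, Cybb had log2 FPKM ratios of -7.42 and -7.41 in DMSO, -7.49 and -7.59 in 3C, and -7.78 and -7.61 in 5C. The corresponding ratios of Cyba were -4.76 and -4.70 in DMSO, -4.42 and -4.27 in 3C, and -3.93 and -4.03 in 5C. For Nox4 they were -11.02 and -11.47 in DMSO and between -9.16 and -8.77 in the treated libraries. Ratios for Cyba and Nox4 thus lay higher in the treated libraries, and those for Cybb lay slightly lower. Those of Ncf4 overlapped between DMSO and each cocktail, at -8.50 and -8.56 in DMSO and -8.64 to -8.28 in the treated libraries. Ncf1 was at -7.11 and -7.35 in DMSO, -6.99 and -7.05 in 3C, and -7.04 and -7.15 in 5C, overlapping DMSO only in 5C. Rac2 was at -8.88 and -8.95 in DMSO, -8.78 and -8.94 in 3C, and -8.57 and -8.69 in 5C, overlapping DMSO only in 3C. The part of the macrophage markers in the fall of the subunits was not tested.

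Other blood cell markers were low. Neutrophil markers summed to 16.1 to 18.8 CPM in DMSO, 5.19 to 7.42 CPM in 3C and 5.31 to 6.05 CPM in 5C, and S100a9, Ly6g, Retnlg, Cxcr2, Camp and Ngp, 6 of the 11 markers, were at or under 12 counts in every library. Of the 5 tested, 3 were called lower in 5C and 2 in 3C, against 4.42% and 3.62% of all genes. T and B cell markers summed to at most 0.516 CPM, and 7 of the 8 were at or under that limit. Stellate cell and fibroblast markers summed to 8312 to 9654 CPM in DMSO, 7320 to 7412 CPM in 3C and 11986 to 12901 CPM in 5C, a sum that came mostly from the collagens Col1a1, Col1a2 and Col3a1. The 14 markers did not move together. In 3C 3 were called higher and 3 lower (median log2 fold change 0.50), and in 5C 5 were called higher and none lower (median 0.43). Over all genes, 5.83% were called higher and 3.62% lower in 3C, and 7.3% and 4.42% in 5C. Lrat, Ngfr and Rgs5, the markers called higher in 3C, and Des, Acta2 and Tagln, those called lower, were named after their values were seen. The log2 fold change in 3C was -1.02 for Des, -1.29 for Acta2 and -1.36 for Tagln, each with both 3C libraries the lowest. Lrat, the retinol-esterifying enzyme of stellate cells, was measured at 6.92 and 8.01 CPM in DMSO. It had 30.8 and 34.4 CPM in 3C, the highest, and 14.4 and 20.4 CPM in 5C. The part of these markers in the levels of the subunits was not tested.

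The genes whose levels most resembled those of Cybb were Lyz2, Gpnmb, Ctss, Adgre1 and Cbr2, with root mean square differences of centred log2 CPM of 0.051 to 0.119 over 6 libraries, beside a median of 1.035 over 10238 genes. For Ncf1 they included Syk, Cd37, Nckap1l and Alox5ap (0.049 to 0.066, median 0.851). For Nox4 they were Slc7a2, Abca5, Prkaa2, Slc4a4 and Lmo7 (0.048 to 0.122, median 0.396). Slc7a2, the nearest to Nox4, was measured at 181 and 157 CPM in DMSO, 313 and 284 CPM in 3C, and 166 and 201 CPM in 5C. All points share the same 6 libraries, so the likeness is descriptive.

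Most of the genes listed for signalling to the phagocyte oxidase were called lower in the cocktails. Of 21 such genes, all tested, 16 were called lower in 5C (median log2 fold change -1.74, against 0.004 over all genes) and 16 in 3C (median -1.34, against 0.009), where 4.42% and 3.62% of all genes were called lower, and none was called higher. Clec7a, the beta-glucan receptor Dectin-1, was measured at 54.3 and 56.8 CPM in DMSO, 5.39 and 7.58 CPM in 3C and 7.66 and 6.46 CPM in 5C. All treated libraries were far below the DMSO libraries, with log2 fold changes of -2.96 in 5C (edgeR adjusted p = 3.11e-06) and -3.13 in 3C (edgeR adjusted p = 4.36e-06). Fcgr1, the high-affinity IgG receptor, fell by 2.95 in 5C (edgeR adjusted p = 5.1e-05) and by 2.00 in 3C (edgeR adjusted p = 0.000495), both on the log2 scale. The genes not called in 5C, named after their values were seen, were Prkcd, Pak1, Rap1a, Arhgdib and Tlr4. In 3C they were Prkcd, Pak1, Rap1a, Arhgdib and Tlr2. Pak1, a kinase downstream of Rac, had log2 fold changes of 0.17 in 5C (edgeR adjusted p = 0.289) and 0.55 in 3C (edgeR adjusted p = 0.00454). In 5C against 3C none was called. At an adjusted p under 0.05 and any size, 12 were lower, against 5.33% of genes, and 1, Tlr4, was higher (log2 fold change 0.32, edgeR adjusted p = 0.0418), against 7.33% of genes.

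Among 7 transcription factors known at phagocyte oxidase genes, Spi1 and Irf8 were called lower in both cocktails, and none was called higher. The 2 calls are out of 6 factors tested, beside the 4.42% of all genes called lower in 5C and 3.62% in 3C. Spi1 was measured at 91.8 and 98.6 CPM in DMSO, 44.5 and 38.6 CPM in 3C and 29.3 and 25.1 CPM in 5C (log2 fold change -1.79 in 5C, edgeR adjusted p = 3.49e-06, and -1.23 in 3C, edgeR adjusted p = 3.71e-05). Irf8, an interferon regulatory factor of myeloid cells, changed by -1.69 in 5C (edgeR adjusted p = 7.64e-06) and -1.35 in 3C (edgeR adjusted p = 3.73e-05). Irf1, Elf1, Runx1 and Cebpb were not called. Cebpb was higher in 5C by 0.47 on the log2 scale (edgeR adjusted p = 0.00389), under the fold limit. Hoxa10 was at or under 12 counts in every library. Whether Spi1 acts on the motifs shown above was not tested.

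**Figure D4:**
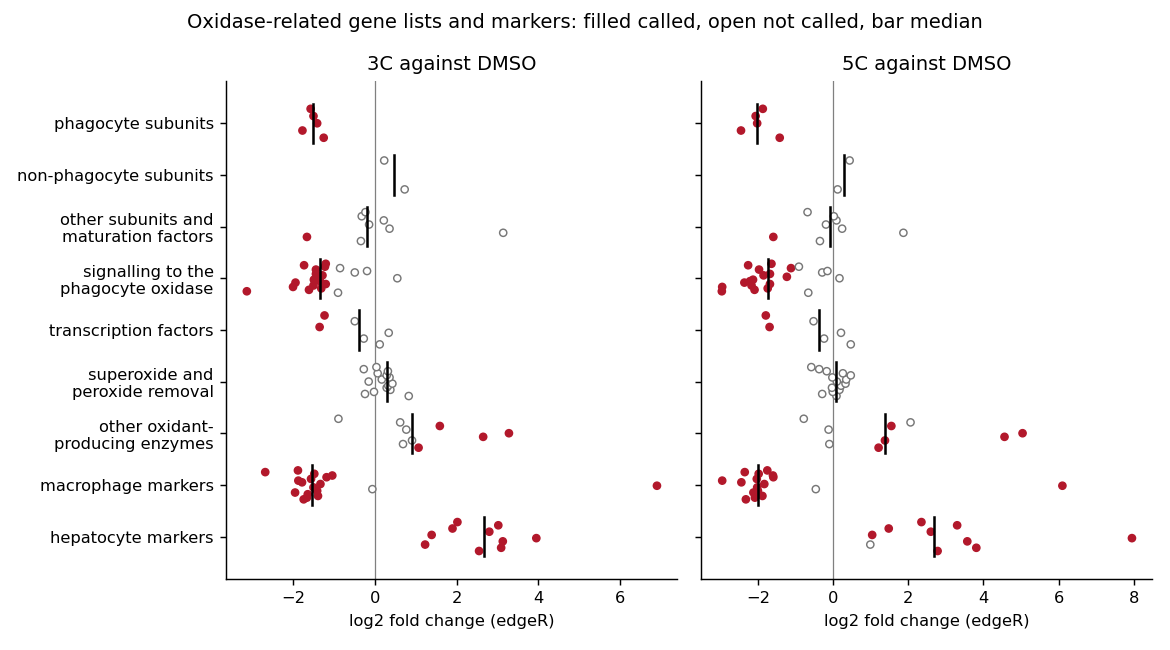
Log2 fold change of each tested gene in the pathway and marker lists, in 3C (left) and 5C (right) against DMSO, with filled points called, open points not called, and a bar at each median. Genes of signalling to the phagocyte oxidase lie mostly below -1, while genes of superoxide and peroxide removal lie near 0.

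Of 12 other oxidase subunits and maturation factors, 8 passed the filter and 1, Hvcn1, was called lower in each cocktail. A single call among 8 genes is near the share of all genes called in either direction, 11.7% in 5C and 9.45% in 3C. Hvcn1 encodes the voltage-gated proton channel that offsets the charge moved by the oxidase. It was measured at 30.5 and 42.2 CPM in DMSO, 12.1 and 11.5 CPM in 3C and 9.45 and 14.3 CPM in 5C (log2 fold change -1.59 in 5C, edgeR adjusted p = 0.00175, and -1.66 in 3C, edgeR adjusted p = 0.00172). Nox3, Duox1, Duoxa1 and Duoxa2 were at or under 12 counts in every library.

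None of 15 genes that remove superoxide and peroxide was called in any comparison, where 11.7% of all genes were called in 5C, 9.45% in 3C and 3.01% in 5C against 3C. Median log2 fold changes were 0.09 in 5C and 0.29 in 3C. At an adjusted p under 0.05 and any size, 7 were higher and none lower in 3C, where 12.7% of all genes were higher and 11.8% lower. In 5C 4 were higher and 3 lower, where 15.6% of all genes were higher and 13.1% lower. Catalase (Cat), singled out after its values were seen, was measured at 335 and 338 CPM in DMSO, 655 and 573 CPM in 3C and 368 and 339 CPM in 5C. It was highest in 3C, as Nox4 was, with a log2 fold change of 0.83 (edgeR adjusted p = 8.99e-05), under the fold limit.

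Other oxidant-producing enzymes rose in part. Of 10, 9 passed the filter, and 5 were called higher in 5C (median 1.38) and 4 in 3C (median 0.91), with none called lower, against 7.3% of genes called higher in 5C and 5.83% in 3C. Hao1, the peroxisomal hydroxyacid oxidase, rose on the log2 scale by 5.04 in 5C (edgeR adjusted p = 1.06e-05) and 3.28 in 3C (edgeR adjusted p = 0.000152), from 0.194 and 0.334 CPM in DMSO. Cyp2e1, a hepatocyte cytochrome P450 that metabolizes CCl4, rose by 4.56 in 5C (edgeR adjusted p = 5.72e-05) and 2.65 in 3C (edgeR adjusted p = 0.00145), from 0.357 and 0.485 CPM. Both were also called higher in 5C than in 3C, as were 2.16% of genes, Hao1 by 1.76 (edgeR adjusted p = 0.00516) and Cyp2e1 by 1.91 (edgeR adjusted p = 0.00963), calls that were lost when some single libraries were left out. Among the others, Maob was called in both cocktails and Aox3 in 5C.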

How the data were processed

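Gene-level RNA-seq values of 6 libraries, 2 per group, were used. The authors sequenced total RNA libraries made with a kit that does not mark strand as paired reads on an Illumina NovaSeq and mapped them to GRCm39. Submitters' processing notes name featureCounts, Subread and DESeq2, and the aligner and annotation release are not given in the sources used here. The deposited table of estimated counts holds whole numbers, and how many counts a fragment gives is not stated. The authors also deposited FPKM values, used for levels per length and for 2 alternatives.

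Counts were tested as deposited in edgeR 4.0.16 (R 4.3.3) with filterByExpr, TMM scaling and the robust quasi-likelihood F test on all 6 libraries, with 3 residual degrees of freedom. Standard errors are those implied by F. CPM used each library's total. DESeq2 1.42.0 and limma 3.58.1 on log2(FPKM + 1) and log2(FPKM + 0.1) were alternatives, with other scalings and filters, counts divided by 4, a replicate block and leaving out each library. Replicates differed beyond sampling noise. Positions and promoter windows came from GRCm39 with GENCODE vM39, in which 51722 of 52323 gene identifiers were found. Depth was 65916573 to 69245895 counts per library.

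The members and gene lists were chosen with earlier results of these data known. Named genes were the 9 members, up to 2 called genes with the largest and 2 with the smallest log2 fold change of each list and comparison, all genes of lists under 8 genes, and the 5 genes nearest in level to Cybb, Ncf1 and Nox4. Other genes were named after their values were seen, and some genes that the rule names are not reported here.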

Additional observations from a re-analysis of the deposited data

How the results depend on the processing

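The count of members called, 5 against DMSO in each cocktail and 0 in 5C against 3C, held under every scaling, filter, tool and left-out library. Without a limit on the fold change it was 6 in 3C and 4 in 5C against 3C. The number of genes called was 2242 in 5C, 1809 in 3C and 576 in 5C against 3C. It was 1231, 958 and 261 with limma on log2(FPKM + 1), and 5485, 4689 and 2423 without a fold limit. Leaving out 1 library gave 1923 to 2191, 1535 to 1784 and 381 to 642, the 381 without 5C replicate 2.

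Directions turned only for changes that were not called. With 1 library left out, the log2 fold change of Nox4 in 5C against DMSO ranged from -0.08 to 0.29, below 0 without 5C replicate 2 (-0.08) and without DMSO replicate 2 (-0.03). That of Noxo1 ranged from -0.45 to 0.69 in 3C against DMSO, the lowest without 3C replicate 1, and from -0.24 to 0.89 in 5C against 3C, the lowest without 3C replicate 2. In 5C against 3C, Clec7a ranged from -0.05 to 0.44, the lowest without 3C replicate 1, and Hvcn1 from -0.29 to 0.34, the lowest without 5C replicate 2. Hao1 and Cyp2e1 in 3C were both 0.94, under the fold limit, with limma on log2(FPKM + 1). In 5C against 3C the adjusted p of Hao1 rose to 0.0511 on leaving out 3C replicate 1 and to 0.0535 on leaving out 5C replicate 2. That of Cyp2e1 rose to 0.0753 on leaving out 3C replicate 2 and to 0.093 on leaving out 5C replicate 2. The cause was not tested.

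Deviations of same-numbered libraries correlated at -0.0306 to 0.0161 between groups over 19135 genes, so the replicate numbers were not taken as pairs. With a replicate block, 2125, 1737 and 536 genes were called, and 5, 5 and 0 members. Under it the adjusted p in 5C against 3C was 0.0548 for Ncf4 and 0.0578 for Nox4. With 2 libraries per group, an outlying library cannot be recognized.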

Other observations

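Markers of 3 further cell types were counted, and genes named here were chosen after their values were seen. Of 9 endothelial markers, 8 were tested. In 5C 5 were called higher (Pecam1, Cdh5, Kdr, Tek and Emcn) and 2 lower (Lyve1 and Vwf), with a median log2 fold change of 1.95. In 3C 3 were called higher and 2 lower, with a median of 0.63. Over all genes, 7.3% were called higher and 4.42% lower in 5C (median 0.004). The shares in 3C were 5.83% and 3.62% (median 0.009). The summed level of the endothelial markers was 353 to 376 CPM in DMSO, 96.2 to 131 CPM in 3C and 153 to 236 CPM in 5C. Lyve1 alone gave 309 and 319 CPM of it in DMSO.

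Of 6 cholangiocyte markers, 3 were called higher in 5C (Krt7, Epcam and Cftr) and 4 in 3C (the same genes and Sox9), with none lower, where 7.3% and 5.83% of all genes were called higher. Their sum was 2902 to 3385 CPM in DMSO, 3520 to 3706 CPM in 3C and 2389 to 2687 CPM in 5C, and Spp1 gave 2748 and 3232 CPM of it in DMSO. Of 5 mesothelial markers, 4 were called higher in 5C and 1, Lrrn4, in 3C, with none lower, and their sum was 843 to 1024 CPM in DMSO, 1100 to 1225 CPM in 3C and 1947 to 2008 CPM in 5C.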
